A study of Homo sapiens with 4 samples.

Results

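The 10 genes described here belong to the NRF2 pathway and to glutathione synthesis, and were measured in ARP1, an established human line of multiple myeloma, which is a malignancy of plasma cells, the makers of antibody. The members were the 10 rows, of 58825 in the deposited gene table, named NFE2L2, KEAP1, NQO1, HMOX1, TXNRD1, SRXN1, GCLC, GCLM, OSGIN1 and ME1. Poly(A)-selected RNA had been sequenced from ARP1 cells labelled RFWD2 overexpression (2 libraries) and from ARP1 cells labelled wild type (2 libraries), with no treatment, time or further allele given. RFWD2 is the older symbol of COP1, an E3 ubiquitin ligase. The sources used here do not give the construct and promoter behind the overexpression, whether its cells are 1 clone, or whether the wild type cells carried an empty construct. The cell line label reads ARP1 for all 4 libraries, whereas their short descriptions run from ARP1 to ARP4, a difference the sources used here do not explain. The libraries are called biological repeats, and nothing says that they came from separate cultures, so p-values rest on a spread between libraries that could be partly technical.

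NRF2, the protein of NFE2L2, is a transcription factor that switches on genes of detoxification and antioxidant defence. In unstressed cells KEAP1 holds it and presents it to a CUL3 ubiquitin ligase, so that it is degraded, and oxidants or electrophiles stop this. NRF2 then pairs with small MAF proteins and binds antioxidant response elements, whose core is written TGACNNNGC. Control of NRF2 by KEAP1 acts on the protein, so the RNA of NFE2L2 is no measure of NRF2 activity and the RNA of its target genes is the usual readout. Glutathione, the main soluble thiol of cells, matters to plasma cells because folding of secreted antibody produces oxidants.

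The core sequence was searched for on both strands of the 250 bases before each RefSeq start (GRCh38.p14), because NRF2 acts through such elements. RefSeq windows were found for 9 of the 10 members, 12 windows in all. A match lay in 5 of these windows, in 4 members (GCLM, TXNRD1, KEAP1 and ME1), against 10.9% of all 35116 windows of that length and 13.2% of all 27305 genes with a window. The windows of both glutamate-cysteine ligase subunits and of ME1 follow, since the first pair varied together between libraries and ME1 had no counts; capitals mark the matched bases in the gene's own 5′ to 3′ direction. The GCLM window is chr1:93909431-93909680, minus strand, with its match starting 34 bases before the start. The GCLC window is chr6:53545102-53545351, minus strand, with 0 matches. The ME1 window is chr6:83431052-83431301, minus strand, with its match 137 bases before the start.
GCLM: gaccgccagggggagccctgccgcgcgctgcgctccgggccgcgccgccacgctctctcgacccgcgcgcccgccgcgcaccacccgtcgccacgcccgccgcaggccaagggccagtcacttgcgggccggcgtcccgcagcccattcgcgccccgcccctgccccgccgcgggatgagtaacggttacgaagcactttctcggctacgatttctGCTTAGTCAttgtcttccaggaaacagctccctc
GCLC: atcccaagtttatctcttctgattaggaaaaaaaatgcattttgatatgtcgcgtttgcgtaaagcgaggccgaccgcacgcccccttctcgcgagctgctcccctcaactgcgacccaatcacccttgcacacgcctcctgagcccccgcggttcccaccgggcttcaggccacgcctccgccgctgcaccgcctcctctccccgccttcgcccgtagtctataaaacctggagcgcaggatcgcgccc
ME1: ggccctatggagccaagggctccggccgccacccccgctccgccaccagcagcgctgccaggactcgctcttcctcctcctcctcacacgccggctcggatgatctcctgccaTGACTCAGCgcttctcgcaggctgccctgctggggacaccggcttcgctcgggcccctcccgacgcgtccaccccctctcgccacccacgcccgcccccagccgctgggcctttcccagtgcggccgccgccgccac

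Matches in the TXNRD1 windows are given with 30 bases each, the first before the upstream RefSeq start (chr12:104215670-104215699, plus strand) and the second before the downstream one (chr12:104286920-104286949, plus strand). The second holds the reverse complement of the core, as does the GCLM window.
TXNRD1 upstream start: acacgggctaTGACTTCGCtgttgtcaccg
TXNRD1 downstream start: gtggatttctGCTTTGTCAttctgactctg
A match is a description of these letters and not a bound site. The NQO1, SRXN1, OSGIN1 and NFE2L2 windows held 0 matches, which says only that the letters are not in these windows. Known elements of several NRF2 targets lie further upstream than such a window reaches. Some windows lie inside the genes themselves. In GENCODE release 29, exons of the same gene cover all 250 bases of the downstream TXNRD1 window and of the NQO1 window. The same holds for a window of NFE2L2 and a window of KEAP1 without a match. Such exons also cover 125 bases of the KEAP1 window with matches, which lies within the span listed for KEAP1, and 170 bases of the SRXN1 window. The GCLC window lies within the span listed for GCLC.

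Library totals ran from 62143098 to 70713792 estimated counts. RFWD2 itself stood at 13.5 and 13.9 FPKM in RFWD2 overexpression libraries 1 and 2, against 5.99 and 8.93 FPKM in wild type libraries 1 and 2, where FPKM is a fragment count corrected for the length of the transcript and the depth of the library. Both overexpression libraries lay above both wild type libraries, as the labels have it. The log2 fold change of 0.86 ± 0.36 (SE) did not, however, pass the test (edgeR's quasi-likelihood test, unadjusted p = 0.0569, Benjamini-Hochberg adjusted p = 1.0). Of 10 plasma cell markers, 9 reached 1 FPKM in a library, with summed levels of 1736 and 1905 FPKM in overexpressing cells and 1939 and 2262 FPKM in wild type cells. The exception was CD27, at 0.26 FPKM at most. Of the 6 adipocyte markers, looked at because the labels' protocol names adipose material, ADIPOQ, FABP4, LEP and PLIN1 were listed at 0 in every library and the sum was 0.06 FPKM at most. The 5 T cell, 5 myeloid, 5 stromal and 5 erythroid markers summed to 1.64 FPKM at most per list. Libraries sharing a number were alike across genotypes: mitochondrially encoded genes took 4.96% of counts in overexpression library 2 and 4.27% in wild type library 2, but 7.46% in overexpression library 1 and 7.68% in wild type library 1. Values within each number are therefore given beside the pooled ones, and no label says what a number stands for.

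No member passed the test between genotypes. All 10 are in the table, and 9 had enough counts to be tested. At an adjusted p under 0.05 edgeR called 0 of the 9 in either direction, and 0 had an unadjusted p under 0.05. DESeq2 and limma also called 0 members. Over all 18873 genes tested, edgeR called 0% (1.83% at an unadjusted p under 0.05, or 1.25% higher and 0.583% lower), and DESeq2 called 0.196% of 28086 (0.117% higher and 0.0783% lower). The log2 fold changes of the 9 members ran from -0.24 to 0.52 with a median of 0.10, where the median of all genes tested was 0.01. There were 6 positive and 3 negative values. Both overexpression libraries lay above both wild type libraries in FPKM for 1 of the 9, against 12.8% of genes tested, and below them for 0 of the 9, against 7.73% of genes tested. These shares are near the background and give no result about the members. A p that misses the threshold does not show equal levels, and with SEs from 0.32 to 0.62 on the log2 scale, large differences too could go unseen. With the library number as a block, a pairing that no label gives, edgeR's SEs ran from 0.17 (KEAP1) to 0.36 (HMOX1). That fit called 0 members too (lowest unadjusted p 0.155). In RNA of whole cultures, fewer cells expressing a gene and less RNA per cell cannot be told apart.

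**Figure D1:**
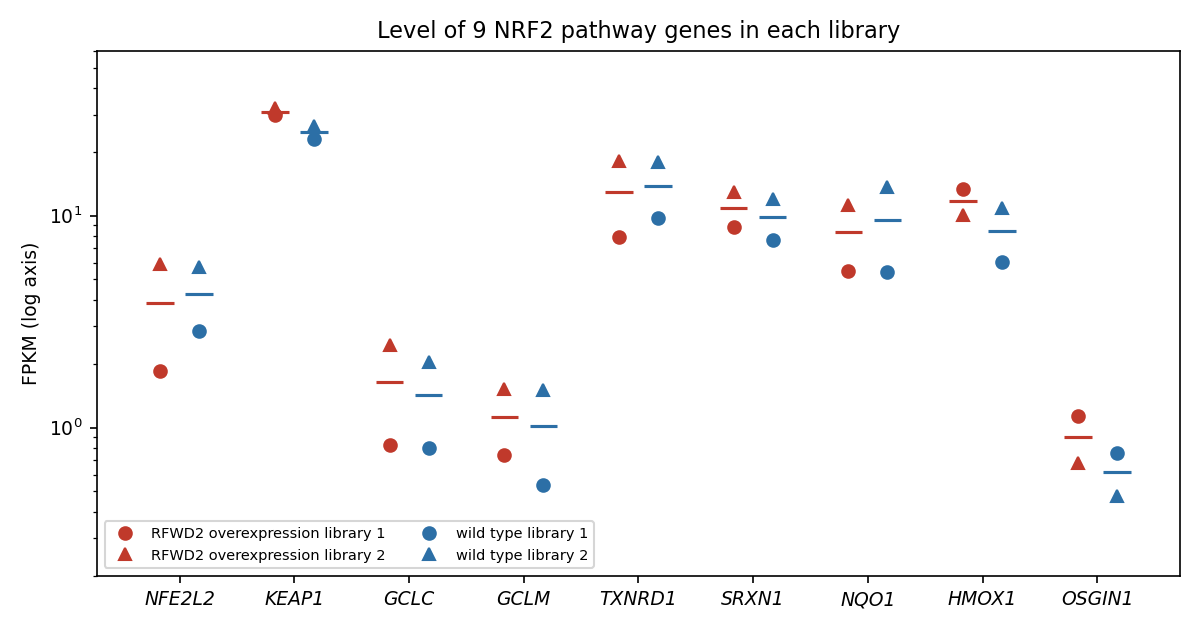
FPKM (log axis) of the 9 members with counts in each library. Circles are libraries numbered 1, triangles libraries numbered 2, and bars the mean of each genotype's 2 libraries; only KEAP1 has groups that do not overlap, and NFE2L2, GCLC, GCLM, TXNRD1, SRXN1 and NQO1 have the triangle above the circle in both genotypes.

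KEAP1 was the most abundant member and the only one whose groups did not overlap. Its level was 29.8 and 32.1 FPKM in the overexpression libraries, against 23.1 and 26.6 FPKM in the wild type libraries. Each overexpression library was therefore above either wild type library. The means were 31.0 ± 1.66 FPKM in overexpressing cells and 24.8 ± 2.44 FPKM in wild type cells (SD, n = 2 each). The log2 fold change of 0.28 ± 0.32 (SE) was smaller than its error and did not pass edgeR's test (unadjusted p = 0.415, adjusted p = 1.0). It was 0.37 within number 1 and 0.18 within number 2, and positive in all 13 alternatives tried (0.16 to 0.40, the lowest without overexpression library 1). KEAP1 (ENSG00000079999) is listed on the minus strand of chromosome 19 from 10486125 to 10503356, in GRCh38 coordinates.

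NFE2L2, the gene of NRF2 itself (ENSG00000116044, minus strand of chromosome 2, 177227595 to 177287777), differed more between libraries of 1 genotype than between genotypes. It was at 1.86 and 5.92 FPKM in the overexpression libraries, against 2.85 and 5.71 FPKM in the wild type libraries. The 2 libraries numbered 2 were nearly level and the 2 numbered 1 were lower, with overexpression library 1 the lowest of all. The log2 fold change was -0.23 ± 0.58 (SE, edgeR adjusted p = 1.0), at -0.61 within number 1 and -0.04 within number 2. Leaving out overexpression library 1 made it positive (0.28), as did leaving out wild type library 2 (0.20). A fit that leaves out a library has the numbers unbalanced between genotypes, here and for the genes below. KEAP1 exceeded NFE2L2 in FPKM 16.04-fold and 5.43-fold in the overexpression libraries, and 8.10-fold and 4.65-fold in the wild type libraries, ranges that overlap. Rows overlapping NFE2L2 on either strand had at most 235 estimated counts, where NFE2L2 had at least 791.

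GCLC and GCLM encode the catalytic and the modifier subunit of glutamate-cysteine ligase, the rate-limiting enzyme of glutathione synthesis, and both stood at low levels. GCLC (ENSG00000001084, minus strand of chromosome 6, 53497341 to 53548206) was at 0.83 and 2.46 FPKM in overexpressing cells and 0.80 and 2.04 FPKM in wild type cells. GCLM (ENSG00000023909, minus strand of chromosome 1, 93885199 to 93909456) was at 0.74 and 1.51 FPKM in overexpressing cells and 0.54 and 1.504 FPKM in wild type cells. In both genes the libraries numbered 2 were the higher ones in either genotype, and the groups overlapped. The catalytic subunit was above the modifier subunit in every library, but by a varying ratio: GCLC stood at 1.12 and 1.63 times GCLM with overexpression and at 1.49 and 1.36 times GCLM in wild type. The log2 fold change of GCLC was 0.14 ± 0.61 (SE), at 0.05 within number 1 and 0.18 within number 2. That of GCLM was 0.10 ± 0.58 (SE), at 0.47 and -0.08 within numbers 1 and 2. Neither passed edgeR's test (adjusted p = 1.0 each), and both became negative without overexpression library 2 (-0.60 for GCLC, -0.28 for GCLM) or when wild type library 1 was left out (-0.31 and -0.39). Low levels did not leave these genes without reads, since each had at least 247 estimated counts in every library.

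TXNRD1 and SRXN1 serve the thioredoxin system: thioredoxin reductase 1 recharges thioredoxin with NADPH, and sulfiredoxin 1 repairs overoxidized peroxiredoxins. TXNRD1 (ENSG00000198431, plus strand of chromosome 12, 104215779 to 104350307) was at 7.89 and 18.1 FPKM in the overexpression libraries and 9.76 and 17.98 FPKM in the wild type libraries. SRXN1 (ENSG00000271303, minus strand of chromosome 20, 646615 to 653370) was at 8.83 and 13.0 FPKM in overexpressing cells and 7.69 and 11.95 FPKM in wild type cells. Both genes were higher in the libraries numbered 2, and the genotypes overlapped. TXNRD1 had a log2 fold change of -0.17 ± 0.44 (SE), at -0.30 and -0.08 within numbers 1 and 2, and SRXN1 one of 0.10 ± 0.38 (SE), at 0.20 and 0.02 (edgeR adjusted p = 1.0 each). TXNRD1 turned positive without overexpression library 1 (0.19) or wild type library 2 (0.19), and SRXN1 negative without wild type library 1 (-0.08), while without overexpression library 2 it was -0.0023. The TXNRD1 row overlaps other rows of the table on its strand, and the sources used here do not say how shared reads were assigned, so the TXNRD1 values, and with them its differences between genotypes and between numbered libraries, are uncertain to that extent.

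NQO1 reduces quinones and is a widely used readout of NRF2 activity. NQO1 (ENSG00000181019, minus strand of chromosome 16, 69706996 to 69726668) was at 5.48 and 11.2 FPKM in overexpressing cells and 5.41 and 13.7 FPKM in wild type cells. The libraries numbered 1 were level between genotypes and those numbered 2 were well above them. The log2 fold change of NQO1 was -0.24 ± 0.52 (SE, edgeR adjusted p = 1.0), at 0.02 within number 1 and -0.38 within number 2, and leaving out overexpression library 1 gave 0.06 and leaving out wild type library 2 gave 0.41.

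HMOX1, heme oxygenase 1, breaks heme down to biliverdin, iron and carbon monoxide, and BACH1 represses it where heme is scarce. HMOX1 (ENSG00000100292, plus strand of chromosome 22, 35380361 to 35390293) was at 13.3 and 10.1 FPKM in the overexpression libraries and 6.04 and 10.8 FPKM in the wild type libraries. Wild type library 1 was low and the other 3 libraries lay closer together, so the groups overlapped. HMOX1 was the member with the smallest p. Its log2 fold change was 0.49 ± 0.46 (SE, edgeR unadjusted p = 0.331, adjusted p = 1.0). The direction differed by number, at 1.14 within number 1 and -0.20 within number 2. The pooled value was 0.07 without overexpression library 1 and 0.22 when wild type library 1 was left out, and was 0.82 without either of the libraries numbered 2.

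OSGIN1, an oxidative stress-induced inhibitor of growth, and ME1, a cytosolic malic enzyme that yields NADPH, had the lowest mean levels of the members. OSGIN1 (ENSG00000140961, plus strand of chromosome 16, 83948282 to 83966331) was at 1.13 and 0.68 FPKM in overexpressing cells and 0.76 and 0.47 FPKM in wild type cells. Each overexpression library exceeded the wild type library of its number, by 0.58 and 0.41 on the log2 scale for numbers 1 and 2, yet the groups overlapped. In overexpression library 1 OSGIN1 was above GCLC and GCLM, and in wild type library 1 above GCLM. At 0.52 ± 0.62 (SE), with an edgeR adjusted p of 1.0, its log2 fold change was the highest among the members and became -0.12 without overexpression library 1. ME1 (ENSG00000065833, minus strand of chromosome 6, 83210402 to 83431051) had an estimated count of 0 in all 4 libraries. A count of 0 allows up to 3 counts, or 0.0483 and 0.0427 CPM in the overexpression libraries and 0.0428 and 0.0424 CPM in the wild type libraries, a limit that covers counting error only. None of 15 genes that cells generally use was listed at 0 (the lowest was 4.98 FPKM). ME2, a mitochondrial malic enzyme, was at 3.57 and 8.82 FPKM in overexpressing cells and 4.32 and 8.01 FPKM in wild type cells. ME3, another mitochondrial malic enzyme, did not exceed 0.04 FPKM in any library.

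By mean FPKM over the 4 libraries, the order ran from KEAP1 (27.9) through TXNRD1 (13.4), SRXN1 (10.4), HMOX1 (10.1), NQO1 (8.95), NFE2L2 (4.09), GCLC (1.53), GCLM (1.07) and OSGIN1 (0.76) to ME1 at 0. KEAP1 lay above TXNRD1 in every library, the lowest KEAP1 value being 23.1 FPKM and the highest TXNRD1 value 18.1 FPKM. From TXNRD1 down to OSGIN1, the ranges of neighbouring genes overlapped, so neighbours in this order are not separated by their ranges across libraries. Genes further apart were separated: TXNRD1, SRXN1, HMOX1 and NQO1 were at 5.41 FPKM or more in every library, above the highest value of GCLC (2.46), GCLM (1.51) and OSGIN1 (1.13). Within each of the 4 libraries, however, NQO1 exceeded NFE2L2, NFE2L2 exceeded GCLC, and GCLC exceeded GCLM.

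**Figure D2:**
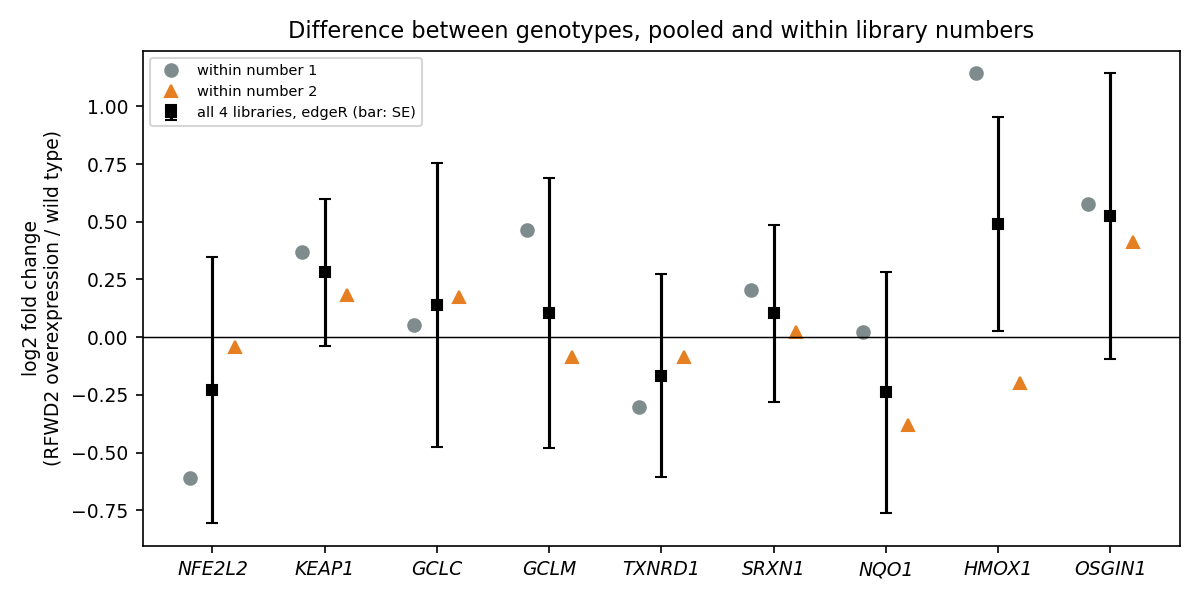
Log2 fold change of RFWD2 overexpression over wild type for the 9 members tested. Squares are edgeR's values from all 4 libraries with their SE, and circles and triangles the differences of log2 CPM within numbers 1 and 2; HMOX1 is at 1.14 within number 1 and -0.20 within number 2, and no member passed the test.

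Most members differed more between the numbered libraries of a genotype than between genotypes within a number, each a difference of single libraries. The share of all genes that did so was not computed. Over 11203 genes, too, deviations from the group means went together in libraries sharing a number (r = 0.59), so this is not particular to the members. In log2 CPM, counts per library size corrected for RNA composition by TMM, NFE2L2 was 1.33 higher in overexpression library 2 than in overexpression library 1, and 0.76 higher in wild type library 2 than in wild type library 1. GCLC was 1.22 higher with overexpression and 1.10 higher in wild type, GCLM 0.68 and 1.23, NQO1 0.69 and 1.10, and TXNRD1 0.86 and 0.64. These 5 members were at least 1.5-fold higher in library 2 of both genotypes, against 16.7% of all genes tested. SRXN1 was higher as well, by 0.21 with overexpression and 0.39 in wild type. The median over the 9 members was 0.68 with overexpression and 0.64 in wild type, where that of all genes tested was 0.04 and 0.01.

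The other 3 members did not share this. OSGIN1 was lower in library 2, by 1.07 with overexpression and 0.91 in wild type (at least 1.5-fold lower in both, against 15% of genes tested). HMOX1 was 0.74 lower with overexpression and 0.60 higher in wild type. KEAP1 was 0.23 lower with overexpression and 0.04 lower in wild type on this scale, but in unscaled FPKM it was 1.08-fold and 1.15-fold higher in library 2, so its direction depends on the scaling. For the 5 members above, FPKM gave ratios of library 2 over library 1 from 2.05 to 3.19 with overexpression and from 1.84 to 2.80 in wild type. TMM factors were 1.14 and 1.08 in overexpression and wild type library 2, and 0.90 and 0.91 in overexpression and wild type library 1. The mitochondrial share moves with the number too, and the part of either in these differences was not tested. Among the genes at least 1.5-fold higher in library 2 of both genotypes were 12 of the 73 other pathway genes tested, a share near the 16.7% of all genes. They included SLC7A11, the cystine carrier that feeds glutathione synthesis (1.40 with overexpression and 1.16 in wild type), BACH1 (1.38 and 0.70), CUL3 (0.99 and 0.91), UGDH (0.73 and 1.10) and PIR (0.62 and 0.77). These 5 were chosen after their values were seen. SLC7A11 was low, at 0.20 and 0.69 FPKM in overexpressing cells and 0.46 and 1.23 FPKM in wild type cells. Between genotypes its log2 fold change was -1.01 ± 0.68 (SE), the lowest among the 82 pathway genes tested. It was -1.18 and -0.94 within numbers 1 and 2. The groups of SLC7A11 overlapped, and it did not pass edgeR's test (unadjusted p = 0.186). Over the 73 other pathway genes, the median difference was -0.29 in the overexpression pair and -0.24 in the wild type pair, so higher values in library 2 were not general to the pathway.

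**Figure D3:**
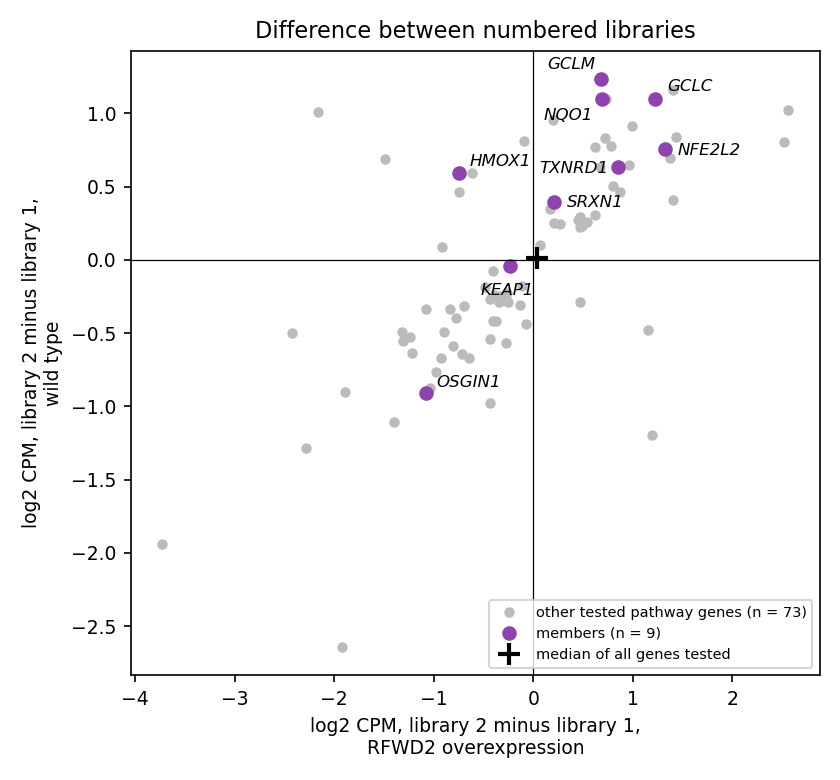
Difference of log2 CPM between library 2 and library 1, for RFWD2 overexpression (horizontal axis) and wild type (vertical axis). Purple points are the 9 members tested, grey points the 73 other pathway genes tested and the cross the median of all genes tested; 6 members lie in the upper right part, KEAP1 and OSGIN1 in the lower left, and HMOX1 in the upper left.

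In the wider pathway, no gene passed the test between genotypes either. Of 94 genes listed for it, members included, 93 were in the table and 82 were tested, and edgeR called 0 of them higher and 0 lower, with 0 at an unadjusted p under 0.05 (smallest 0.108). DESeq2 and limma called 0. In 12 of them both overexpression libraries lay above both wild type libraries, and in 5 both lay below, shares near the 12.8% and 7.73% of all genes tested. The median log2 fold change was 0.09, against 0.01 for all genes tested. Of the 93 genes, 6 were listed at 0 in every library, among them ME1 and AKR1C2. GPX1, a cytosolic glutathione peroxidase, did not exceed 0.18 FPKM. Overlap with other rows was not checked for GPX1, and how shared reads were assigned is not given, so its low value may not be its true level.

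**Figure D4:**
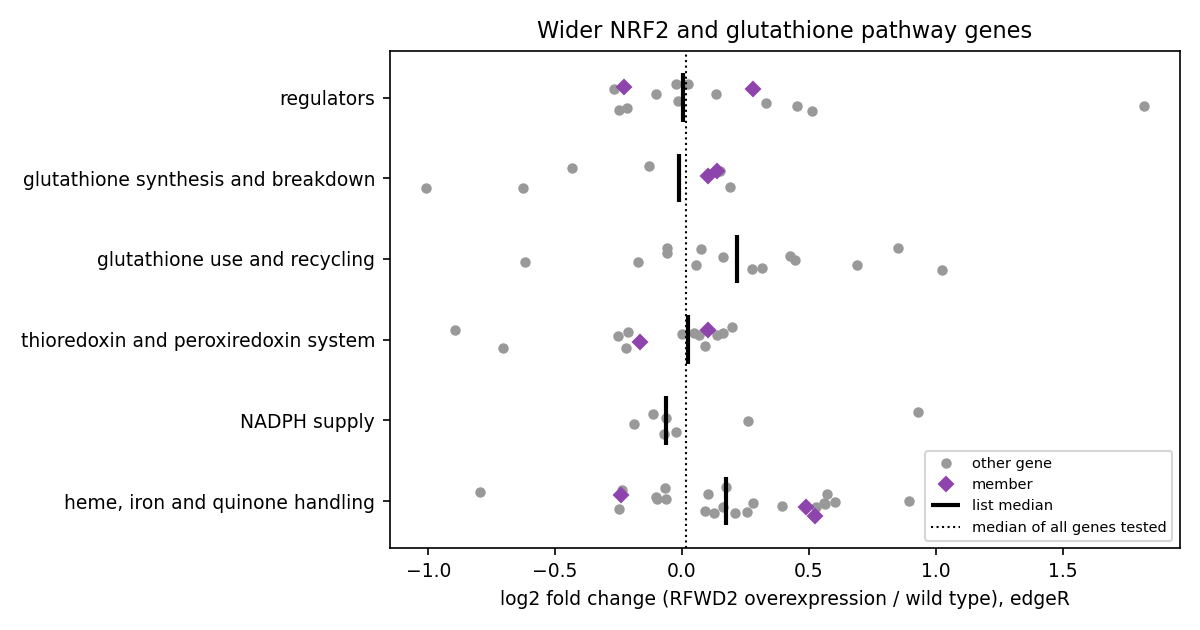
Log2 fold change of RFWD2 overexpression over wild type (edgeR) for the 82 pathway genes tested, by list. Diamonds are members, grey points other genes, thick bars the list medians and the dotted line the median of all genes tested; medians run from -0.06 for NADPH supply to 0.22 for glutathione use and recycling, and no gene passed the test.

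Among regulators, 0 of 14 tested genes were called (median log2 fold change 0.00). NFE2L1, a relative of NRF2 that controls proteasome genes, was at 34.4 and 32.2 FPKM in overexpressing cells and 23.9 and 23.5 FPKM in wild type cells. The groups of NFE2L1 did not overlap, and the difference on the log2 scale was 0.45 ± 0.34 (SE, edgeR adjusted p = 1.0), at 0.53 and 0.36 within numbers 1 and 2, and 0.22 without overexpression library 1. MAFG, a small MAF partner of NRF2, went opposite ways within the numbers (0.93 and -1.25), at 10.9 and 4.94 FPKM in overexpressing cells and 5.75 and 10.99 FPKM in wild type cells. It was named after its values were seen.

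Of the genes that make, import or break down glutathione, 8 were tested and 0 called (median -0.01). SLC3A2, the heavy chain of the cystine carrier, was at 43.8 and 23.5 FPKM in overexpressing cells and 49.9 and 41.1 FPKM in wild type cells, and GGCT, an enzyme of glutathione breakdown, at 16.7 and 23.9 FPKM in overexpressing cells and 17.2 and 25.9 FPKM in wild type cells. SLC3A2 was lowest in overexpression library 2, and the groups of both genes overlapped. The log2 fold change of SLC3A2 was -0.43 and became 0.06 without overexpression library 2, and that of GGCT was -0.13 and became 0.05 without wild type library 2. CHAC1, which cleaves glutathione, was at 10.7 and 1.001 FPKM in overexpressing cells and 14.1 and 4.33 FPKM in wild type cells. It is named because it was the 1 pathway gene that any alternative called: without overexpression library 1 its log2 fold change was -3.48 (edgeR adjusted p = 0.0040), against -0.63 (adjusted p = 1.0) with all 4 libraries. That fit sets overexpression library 2 alone against both wild type libraries, and it called 0.409% of the 20305 genes it tested lower. The direction of CHAC1 was the opposite without overexpression library 2 (0.27) and when wild type library 1 was left out (0.64). Within numbers 1 and 2 the difference was -0.40 and -2.18. CHAC1 also differed by number: library 2 minus library 1 was -3.73 with overexpression and -1.94 in wild type, in log2 CPM. A fit without 1 library does not balance the numbers between genotypes.

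Genes that use or recycle glutathione had the highest list median, 0.22, with 0 of 14 tested genes called. MGST3, a membrane-bound glutathione transferase, was at 5.25 and 5.02 FPKM in overexpressing cells and 4.25 and 3.77 FPKM in wild type cells, so that its groups did not overlap. The difference was 0.31 ± 0.38 on the log2 scale (SE, edgeR adjusted p = 1.0), and 0.31 and 0.32 within numbers 1 and 2, but 0.09 without overexpression library 1 and 0.12 when wild type library 2 was left out. GPX4, the peroxidase that protects membrane lipids, was at 100.1 and 51.0 FPKM in overexpressing cells and 69.0 and 55.8 FPKM in wild type cells, with overexpression library 1 alone high, and its log2 fold change of 0.28 was -0.53 without that library.

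In the thioredoxin and peroxiredoxin system, 0 of 14 tested genes were called (median 0.02). TXNIP, which binds and inhibits thioredoxin, had the smallest p of the whole pathway. It was at 29.7 and 83.8 FPKM in the overexpression libraries and 104 and 88.4 FPKM in the wild type libraries. The low value was that of overexpression library 1, and overexpression library 2 was close to wild type. The log2 fold change was -0.89 ± 0.47 (SE, edgeR unadjusted p = 0.108, adjusted p = 1.0), at -1.80 within number 1 and -0.17 within number 2, and -0.43 without overexpression library 1. PRDX6, a peroxiredoxin, was nearly constant in unscaled FPKM, at 128 and 128 FPKM in overexpressing cells and 121 and 121 FPKM in wild type cells. In log2 CPM with TMM it was 0.34 lower in library 2 with overexpression and 0.25 lower in wild type. The log2 fold change of PRDX6 between genotypes was 0.05, but -0.14 without overexpression library 1 and -0.07 when wild type library 2 was left out.

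NADPH supply genes had 0 of 7 tested genes called (median -0.06). TALDO1 and PGD, enzymes of the pentose phosphate pathway, were at 97.3 and 91.4 FPKM and at 53.1 and 51.0 FPKM in overexpressing cells, and at 115 and 93.5 FPKM and at 51.9 and 58.4 FPKM in wild type cells. Their groups overlapped. TALDO1 had a log2 fold change of -0.19, which was 0.01 without overexpression library 2 and 0.10 when wild type library 1 was left out, and PGD one of -0.11, which was 0.08 without overexpression library 2.

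Heme, iron and quinone genes had 0 of 25 tested genes called (median 0.17), with 5 whose overexpression libraries both lay above wild type and 3 with both below, against 12.8% and 7.73% of all genes tested. BLVRA, the biliverdin reductase that acts after heme oxygenase, was at 57.8 and 52.4 FPKM in overexpressing cells and 35.6 and 37.0 FPKM in wild type cells. Its values gave a log2 fold change of 0.57 ± 0.35 (SE, edgeR unadjusted p = 0.155, adjusted p = 1.0), at 0.70 and 0.40 within numbers 1 and 2, and 0.30 without overexpression library 1. CBR1, a carbonyl reductase, was at 52.7 and 62.8 FPKM in overexpressing cells and 25.2 and 52.3 FPKM in wild type cells, with wild type library 1 alone far below, and its log2 fold change of 0.56 was 0.21 without that library. AKR1B1, aldose reductase, was at 28.0 and 27.0 FPKM in overexpressing cells and 22.1 and 22.1 FPKM in wild type cells. ABCC1, an exporter of glutathione conjugates, was at 15.5 and 15.2 FPKM in overexpressing cells and 18.7 and 16.6 FPKM in wild type cells. The log2 fold changes of AKR1B1 and ABCC1, 0.28 and -0.25, were smaller than their SEs of 0.34 and 0.35. AKR1B1 was at 0.07 without overexpression library 1, and ABCC1 at -0.03 without wild type library 1 and -0.07 without overexpression library 2.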

How the data were processed

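The deposited table gives, per gene and library, a whole-number column headed as counts and an FPKM column, per the file headers. The count columns were taken as estimated counts, as deposited by the authors, since multiples of 4 are in excess among low values (35.4% to 36.0% of those from 1 to 19). In the deposited FPKM columns, 0.0001 stands for 0 and was set to 0. Bowtie 0.12.2, StringTie 1.3.0, HISAT2 2.0 and mm8, a mouse build, appear in the submitters' processing notes, although the identifiers are human; all 10 members occur in GENCODE release 29 (GRCh38), 8 with the same start or end. The sources used here do not give the counting tool, its strand setting or how shared reads were treated.

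Groups came from the genotype labels. The test was edgeR 4.0.16's quasi-likelihood F test (R 4.3.3) with TMM factors, filterByExpr and Benjamini-Hochberg adjustment over 18873 genes, two-sided at 0.05. An SE is the fold change divided by the root of F. Differences within a number were taken on log2 CPM (prior count 2). DESeq2 1.42.0 and limma 3.58.1 were alternatives, and the fits were tested on simulated data. Promoter windows came from RefSeq (GRCh38.p14).

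The members and lists were chosen with earlier results of these data known. All members are named. From each pathway list come up to 4 genes whose groups do not overlap and whose higher group averages at least 5 FPKM, by smallest p, filled up to 2 with the most abundant genes. With 4 libraries, no measure of likeness between genes was computed. CHAC1, MAFG and 5 genes higher in the libraries numbered 2 were named outside this rule, after their values were seen. ME2 and ME3, given beside ME1, are also outside this rule.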

Additional observations from a re-analysis of the deposited data

How the results depend on the processing

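With 2 libraries per group, precision is limited by their spread, not by depth. The 0 members called stayed at 0 in all 13 alternatives: library totals without scaling factors, DESeq2 size factors, DESeq2, no filter, 3 limma fits on FPKM, counts divided by 4, the replicate block and each library left out. Over the whole table the 0 calls became 55 with DESeq2, 8 without the filter on low counts and from 73 to 183 when a library was left out; the cause was not tested. The pathway genes called ranged from 0 to 1 when a library was left out (CHAC1, without overexpression library 1). Outside the fits that left out a library, no member changed direction. In those fits there were 13 changes of sign, in 7 members: NFE2L2 ranged from -1.04 to 0.28, GCLC from -0.60 to 0.79, GCLM from -0.39 to 0.85, TXNRD1 from -0.65 to 0.19, SRXN1 from -0.084 to 0.31, NQO1 from -0.69 to 0.41 and OSGIN1 from -0.12 to 1.05. KEAP1, HMOX1 and RFWD2 kept their sign in all 13. Leaving out a library unbalances the numbers between genotypes, and the part of this in the changes of sign was not tested. Of the 7 members, NFE2L2, GCLC, TXNRD1, SRXN1 and OSGIN1 had the same sign within both numbers. GCLM and NQO1 did not, and neither did HMOX1.

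With the replicate number as a block, edgeR called 0 genes over the table (1201 at an unadjusted p under 0.05), 0 members and 0 pathway genes. Libraries share only a number, with no label pairing them; their deviations from the group means correlated across 11203 genes (r = 0.59), which are not independent replicates.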
